A study of Mus musculus with 8 samples.

Results

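The 10 genes described here encode the 2 Hedgehog ligands of the gut epithelium, Shh and Ihh, the receptor Ptch1, the decoy receptor Hhip, the co-receptor Cdon, the transducer Smo, the inhibitor Sufu and the transcription factors Gli1, Gli2 and Gli3. They were taken by symbol from a table of 56691 rows, of which 26206 had at least 1 count, and all 10 had a row. RNA was sequenced from organoids, 3-dimensional cultures grown from the epithelium of the mouse hindstomach (the glandular stomach) at embryonic day 18.5. The cultures stayed 5 days in growth medium and then 7 days in differentiation medium. Of the 8 libraries, 4 were from Shh-Cre;YAP5SA cultures (YAP5SA) and 4 from Shh-Cre cultures (Ctrl). YAP5SA is a form of the Hippo pathway coactivator YAP that escapes inhibitory phosphorylation. The promoter and species of the transgene are not given in the labels. All 8 cultures carry Shh-Cre, which expresses Cre recombinase where Shh is active. In the Shh-Cre line in general use the insertion sits in the Shh gene and disables that copy, and the labels do not say which line was used. The Shh level below is therefore measured in cells in which Shh itself may be altered in both groups. The labels give the replicates of a group as separate samples without naming embryos or litters, so the p-values measure the spread between these samples only.

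In Hedgehog signalling, a secreted ligand binds Patched and so relieves Smoothened of its inhibition, and Smoothened then acts through Sufu and the primary cilium on the GLI factors. GLI factors switch on Ptch1, Hhip and Gli1, which makes these genes standard readouts of a response. In the developing stomach and intestine Shh and Ihh are made by the epithelium and are received mainly by the mesenchyme beneath it.

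Total counts were 17387372 to 21039926 in YAP5SA libraries and 18225648 to 25841256 in Ctrl libraries. A count of 0 in a library leaves room for 3 counts. On the scale of CPM, counts scaled to the size of the library, that is 0.143 to 0.173 in YAP5SA and 0.116 to 0.165 in Ctrl before TMM scaling, and it covers counting error only. Each of 4 genes of the Y chromosome (Uty, Kdm5d, Eif2s3y, Ddx3y) had 880 to 3854 counts in every YAP5SA library and 0 in every Ctrl library. Xist had 0 to 8 counts in YAP5SA libraries and 8436 to 12237 in Ctrl libraries. Sex, as read from these transcripts, and genotype therefore cannot be told apart in any result, whether or not a gene is sex-linked. Yap1, whose reads cannot be split into transgene and endogenous gene here, was at 140 ± 2.22 CPM in YAP5SA and 118 ± 11.0 CPM in Ctrl (log2 fold change 0.25, edgeR adjusted p = 0.0111). Called here means an adjusted p under 0.05 in edgeR's quasi-likelihood test, which 64.5% of all tested genes reached, 33.1% higher and 31.3% lower. Of 10 epithelial markers 5 were higher, 4 lower and 1 not called, with Epcam at 592 CPM in YAP5SA and 296 CPM in Ctrl, Cldn4 at 277 and 131 CPM and Krt19 at 3144 and 6404 CPM, in that order of groups. All 8 gastric surface and gland markers were lower in YAP5SA, with a median log2 fold change of -3.40, and Vsig1, Anxa10, Tff1 and Gkn2 had the 4 smallest p of the list. The 14 mesenchyme markers summed to 1.73 to 2.24 CPM in YAP5SA libraries and 0.395 to 0.948 CPM in Ctrl libraries. None of them passed the filter on low counts, and Col1a2, Lum and Foxl1 had 0 counts in all 8 libraries. Myh11 had 8 to 18 counts in YAP5SA libraries and 0 to 4 in Ctrl libraries, and Pdgfra 4 to 14 and 1 to 4. Pdgfrb, Foxf1, Acta2 and Twist1 also had more counts in YAP5SA, summed over libraries, while Col1a1, Col3a1, Dcn, Des and Thy1 had more in Ctrl. Smooth muscle markers summed to at most 1.20 CPM, endothelial markers to at most 1.81 CPM and neural and glial markers to at most 1.67 CPM. Of these only Tubb3 was tested (log2 fold change -1.97), with 3 to 8 counts in YAP5SA libraries and 14 to 31 in Ctrl libraries. Of 5 immune markers, Csf1r (log2 fold change 6.59), Cd68 (1.63) and Lyz2, which was near 0 in Ctrl, were higher in YAP5SA. The summed level of the 5 was 67.0 to 74.0 CPM in YAP5SA and 8.52 to 17.9 CPM in Ctrl. Ptprc had 0 to 1 counts in YAP5SA libraries and 2 to 6 in Ctrl libraries, and Adgre1 had 0 in all 8. The part of any such cells in the results below was not tested.

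Both ligand genes were about an order of magnitude lower in YAP5SA cultures, while the transducer Smo was higher and the receptor Ptch1 was not called. Of the 10 genes, 6 had enough counts to be tested. Of these, Smo was higher, Shh and Ihh were lower, and Ptch1, Cdon and Sufu were not called. Hhip, Gli1, Gli2 and Gli3 were at or near 0 counts in every library and were not tested. Of all 13812 tested genes, 64.5% were called, so that 3 of 6 is no larger a share than that of all genes. Scaling by library size alone gave 5742 higher and 3201 lower in place of 4577 and 4330, and moved the median of all genes to a log2 fold change of 0.19, against 0.02.

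**Figure D1:**
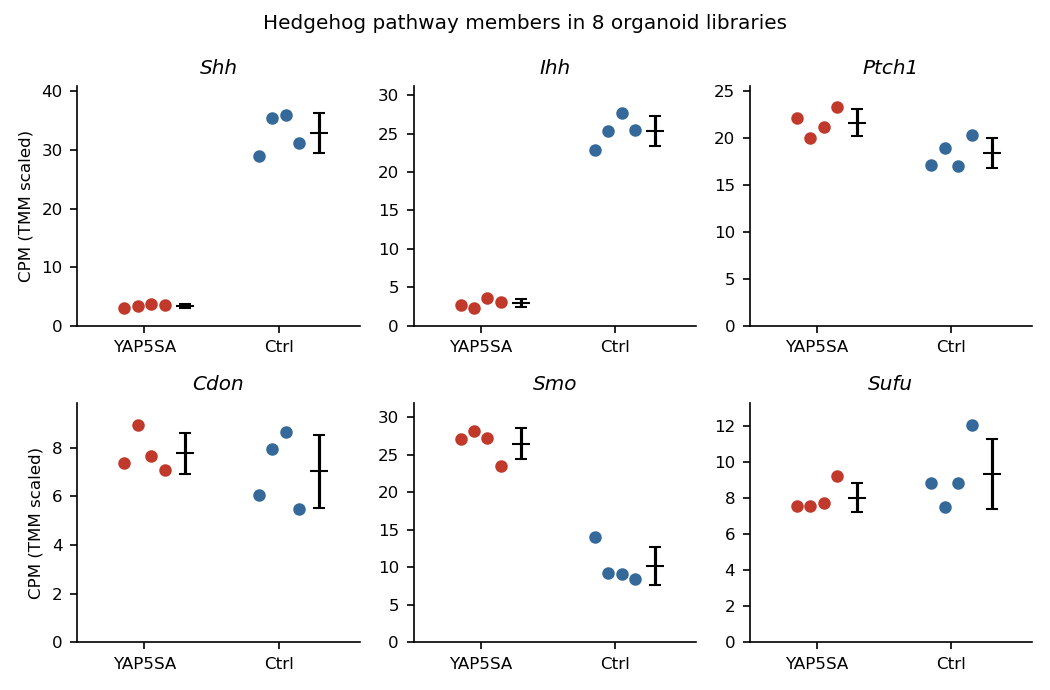
CPM (TMM scaled, from 0) of the 6 tested genes in each library, YAP5SA in red on the left and Ctrl in blue on the right of each panel, with the mean and SD (n = 4) beside the points. Shh and Ihh lie below 4 CPM in YAP5SA and above 22 CPM in Ctrl, Smo lies higher in YAP5SA, and the groups overlap for Ptch1, Cdon and Sufu.

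Shh encodes Sonic hedgehog, the ligand whose gene also drives the Cre of these cultures. It had 67, 64, 70 and 80 counts in YAP5SA replicates 1 to 4, against 513, 598, 860 and 557 in Ctrl replicates 1 to 4. The groups did not overlap, as was so for 58.7% of all tested genes. Scaled, that was 3.44 ± 0.315 CPM in YAP5SA and 32.8 ± 3.37 CPM in Ctrl (SD, n = 4 each), 9.55-fold lower in YAP5SA. The log2 fold change was -3.26 (SE 0.12, 95% interval -3.52 to -2.99, edgeR adjusted p = 5.6e-11). Of all tested genes, 1.47% had a log2 fold change as low or lower. In these bulk cultures, fewer cells that make Shh and less Shh RNA in each cell cannot be told apart. An antisense gene, 9530036O11Rik, shares 446 exon bases with Shh in GENCODE M21 and had 0 to 7 counts in YAP5SA and 14 to 47 in Ctrl. As the strand setting of the counting is not given in the sources used here, its reads and those of Shh cannot be separated with certainty.

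Ihh encodes Indian hedgehog, the second ligand of the gut epithelium. It had 61, 45, 67 and 67 counts in YAP5SA and 405, 428, 662 and 456 in Ctrl, in the order of the replicates. Again no YAP5SA library came near the lowest Ctrl library. The means were 2.93 ± 0.516 CPM in YAP5SA and 25.3 ± 1.95 CPM in Ctrl (SD, n = 4 each), 8.63-fold lower in YAP5SA. The log2 fold change was -3.11 (SE 0.14, 95% interval -3.41 to -2.81, edgeR adjusted p = 2.94e-10).

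The ratio within the pair needs no scaling between libraries. There were 0.910, 0.703, 0.957 and 0.838 Ihh counts for each Shh count in the YAP5SA libraries, against 0.789, 0.716, 0.770 and 0.819 in the Ctrl libraries. The log2 ratio was 0.13 higher in YAP5SA, and the groups overlapped (exact permutation test over 70 divisions of the 8 libraries, two-sided, p = 0.257, smallest possible 0.0286; adjusted over 4 ratios 0.257). Without YAP5SA replicate 2 the difference was 0.22 (exact p = 0.0286).

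Dhh, the ligand known from testis and peripheral nerve, is given beside them although it is not among the 10 genes. It had 48, 50, 34 and 26 counts in YAP5SA and 41, 29, 53 and 43 in Ctrl. The groups overlapped fully, at 1.94 ± 0.60 CPM in YAP5SA and 2.16 ± 0.305 CPM in Ctrl (log2 fold change -0.16, 95% interval -0.74 to 0.43, edgeR adjusted p = 0.632). Its exons overlap those of Rhebl1 and of an antisense gene, so its counts are uncertain. The log2 ratio of Dhh to Shh was 3.06 higher in YAP5SA than in Ctrl, with no overlap (exact permutation p = 0.0286, the smallest possible, adjusted over 4 ratios 0.0381). That comparison was chosen after the values were seen, and with Dhh not called it mostly restates the fall of Shh. Per length, in CPM per kb of exon, the 3 ligands together stood at 2.47 to 2.89 in YAP5SA and 18.2 to 22.2 in Ctrl. Dhh made up 10.6% to 23.4% of that sum in YAP5SA and 1.85% to 2.89% in Ctrl.

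Ptch1 encodes the ligand receptor, which holds Smoothened inactive and is itself a GLI target. It had 486, 384, 397 and 511 counts in YAP5SA and 304, 320, 407 and 364 in Ctrl. The lowest YAP5SA library (20.0 CPM) lay just under the highest Ctrl library (20.3 CPM). The means were 21.6 ± 1.41 CPM in YAP5SA and 18.4 ± 1.6 CPM in Ctrl (SD, n = 4 each). The log2 fold change was 0.24 (SE 0.10, 95% interval 0.02 to 0.46, edgeR adjusted p = 0.0526). The call sat at the threshold: over 17 other settings the value ran from 0.18 to 0.41 and the adjusted p from 0.00277 to 0.184, with 6 of the settings calling it higher. Among the 6 were the fits without YAP5SA replicate 2 (0.27, adjusted p = 0.0467) and without Ctrl replicate 4 (0.27, adjusted p = 0.0417). In none of the 17 was it lower in YAP5SA. There were 5.67 to 7.25 Ptch1 counts for each Shh count in YAP5SA and 0.473 to 0.653 in Ctrl. The log2 ratio was 3.49 higher in YAP5SA (exact permutation p = 0.0286, the smallest possible, adjusted over 4 ratios 0.0381). This ratio was chosen after the values were seen and mostly restates the fall of Shh (log2 fold change -3.26), so it is no separate result on Ptch1.

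Hhip encodes a membrane protein that binds and sequesters the ligands, and its transcription follows GLI activity. It had 0 counts in all 4 YAP5SA and all 4 Ctrl libraries. Per length that puts it under 0.019 CPM per kb of exon in the shallowest YAP5SA library and under 0.0181 in the shallowest Ctrl library, where Ptch1 averaged 1.53 and 1.29 CPM per kb.

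Cdon encodes a co-receptor that presents the ligand to Patched. It had 162, 172, 144 and 155 counts in YAP5SA and 107, 134, 207 and 98 in Ctrl. The Ctrl libraries spread around the YAP5SA libraries, at 7.76 ± 0.83 CPM in YAP5SA and 7.02 ± 1.51 CPM in Ctrl (SD, n = 4 each). The log2 fold change was 0.14 (SE 0.17, 95% interval -0.23 to 0.51, edgeR adjusted p = 0.493).

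Smo encodes Smoothened, the membrane protein that carries the signal once Patched is occupied. It had 598, 541, 510 and 515 counts in YAP5SA and 248, 155, 219 and 152 in Ctrl. Every YAP5SA library was above every Ctrl library, at 26.5 ± 2.05 CPM in YAP5SA and 10.2 ± 2.55 CPM in Ctrl (SD, n = 4 each), 2.60-fold higher in YAP5SA. Its log2 fold change was 1.38 (SE 0.15, 95% interval 1.06 to 1.70, edgeR adjusted p = 1.92e-06), and 9.21% of all tested genes had one as high or higher. The Ctrl libraries were uneven, with replicate 1 at 14.0 CPM and the others at 8.49 to 9.18 CPM. The log2 ratio of Smo to Ptch1, which mostly restates the rise of Smo, was chosen after the values were seen. It was 1.17 higher in YAP5SA with no overlap (exact permutation p = 0.0286, the smallest possible, adjusted over 4 ratios 0.0381). Without any one of the 4 YAP5SA libraries that difference was 1.10 to 1.26 with an exact p of 0.0571.

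Sequences near the start of 3 of these genes are shown because YAP acts on DNA through TEAD factors and Ptch1 is the classical GLI target. RefSeq promoter windows (250 bases before to 50 after a start site, GRCm38.p6) were at hand for 8 of the 10 genes, all but Shh and Gli1. They were searched on both strands for CATTCC, the core of the TEAD motif, and for GACCACCCA, the GLI consensus, neither of which contains the other. CATTCC, shown in capitals, was in 1 of the 8 windows, that of Smo (base 234 of the window), and in 14.7% of all 32851 windows. GACCACCCA was in none of the 8 and in 0.253% of all windows. The Smo window is chr6:29735247-29735546 on the plus strand, the Ihh window chr1:74951623-74951922 on the minus strand and the Ptch1 window chr13:63565686-63565985 on the minus strand, each written 5′ to 3′.
Smo: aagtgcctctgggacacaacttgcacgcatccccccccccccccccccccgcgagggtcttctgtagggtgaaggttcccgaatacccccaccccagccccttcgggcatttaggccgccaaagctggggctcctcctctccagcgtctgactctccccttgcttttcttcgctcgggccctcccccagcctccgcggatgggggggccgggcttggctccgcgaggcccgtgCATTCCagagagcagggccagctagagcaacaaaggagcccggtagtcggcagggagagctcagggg
Ihh: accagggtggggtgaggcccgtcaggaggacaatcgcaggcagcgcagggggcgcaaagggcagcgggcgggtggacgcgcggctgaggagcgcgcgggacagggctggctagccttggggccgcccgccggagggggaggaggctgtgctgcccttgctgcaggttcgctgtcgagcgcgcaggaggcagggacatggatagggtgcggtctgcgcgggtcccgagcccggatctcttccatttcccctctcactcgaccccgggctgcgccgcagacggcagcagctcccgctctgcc
Ptch1: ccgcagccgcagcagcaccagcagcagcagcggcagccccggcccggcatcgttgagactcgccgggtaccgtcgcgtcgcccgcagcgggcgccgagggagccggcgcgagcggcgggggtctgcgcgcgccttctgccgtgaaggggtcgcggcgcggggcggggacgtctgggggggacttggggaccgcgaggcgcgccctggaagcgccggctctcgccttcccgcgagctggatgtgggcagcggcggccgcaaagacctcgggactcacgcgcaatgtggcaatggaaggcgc
A match describes the letters of these windows only.

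Sufu encodes the protein that holds GLI factors inactive in the cytoplasm. It had 167, 145, 145 and 202 counts in YAP5SA and 157, 127, 212 and 216 in Ctrl. The ranges overlapped, with 8.02 ± 0.801 CPM in YAP5SA and 9.32 ± 1.93 CPM in Ctrl (SD, n = 4 each). The log2 fold change was -0.22 (SE 0.16, 95% interval -0.56 to 0.13, edgeR adjusted p = 0.252).

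The GLI factors, through which any Hedgehog signal reaches its target genes, were at or near 0 counts in both groups. Gli1, an activator and itself a target, had 3 counts in YAP5SA replicate 1 and 0 in the other 7 libraries. Gli2, the main activator, had 0 counts in all 8. Gli3, mainly a repressor, had 1 count in YAP5SA replicates 1 and 3 and 0 elsewhere. These values are at or under the limit of 3 counts that a 0 allows, so no fold is given. Per length the limit in the shallowest library is 0.0345 CPM per kb for Gli1, 0.0251 for Gli2 and 0.018 for Gli3 in YAP5SA, and 0.033, 0.024 and 0.0172 in Ctrl. Smo at 4.71 and 1.81 CPM per kb (YAP5SA and Ctrl) was measured in the same cultures.

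**Figure D2:**
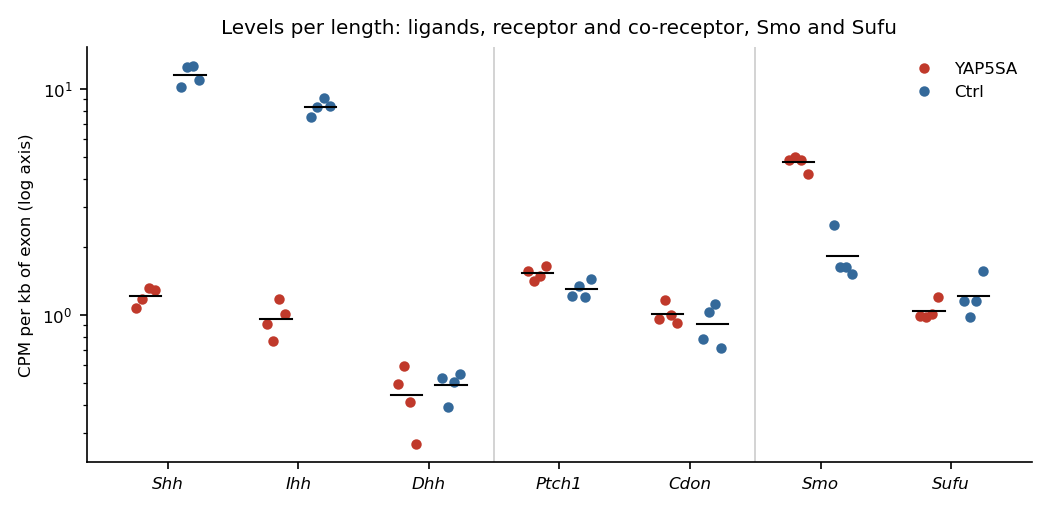
CPM per kb of exon on a log axis for the 3 ligand genes, Ptch1, Cdon, Smo and Sufu, with YAP5SA in red to the left of Ctrl in blue; points are the 4 libraries and bars their mean. Shh and Ihh are the highest of the 7 in Ctrl, while Smo is the highest in YAP5SA.

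The order of the levels per length differed between the groups. In YAP5SA it ran Smo (4.71 CPM per kb), Ptch1 (1.53), Shh (1.21), Sufu (1.04), Cdon (1.01), Ihh (0.963) and Dhh (0.442). Shh, Sufu, Cdon and Ihh overlapped in sequence there and cannot be ranked beyond their spread. In Ctrl it ran Shh (11.5 CPM per kb), Ihh (8.31), Smo (1.81), Ptch1 (1.29), Sufu (1.21), Cdon (0.910) and Dhh (0.491), where Ptch1 overlapped Sufu and Sufu overlapped Cdon. The lengths come from merged exons in GENCODE M21. With the longest transcript instead, Sufu stood above Shh in YAP5SA (1.77 and 1.21) and above Ptch1 in Ctrl (2.06 and 1.77), while in Ctrl Shh overlapped Ihh (11.5 and 10.3) and Smo overlapped Sufu (2.70 and 2.06). Those orders are therefore not firm.

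Replicates varied among themselves to different degrees. The coefficient of variation of CPM was 9.16% for Shh in YAP5SA, where counting alone gives 11.9%, and 10.3% in Ctrl, where counting gives 3.98%. For Ihh it was 17.6% in YAP5SA (counting 12.9%) and 7.68% in Ctrl (counting 4.53%). For Ptch1 it was 6.52% in YAP5SA and 8.70% in Ctrl. Smo, Cdon and Sufu varied by 25%, 21.4% and 20.7% in Ctrl, against 7.76%, 10.7% and 9.99% in YAP5SA, where counting gives 7.19%, 8.56% and 7.50% in Ctrl.

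**Figure D3:**
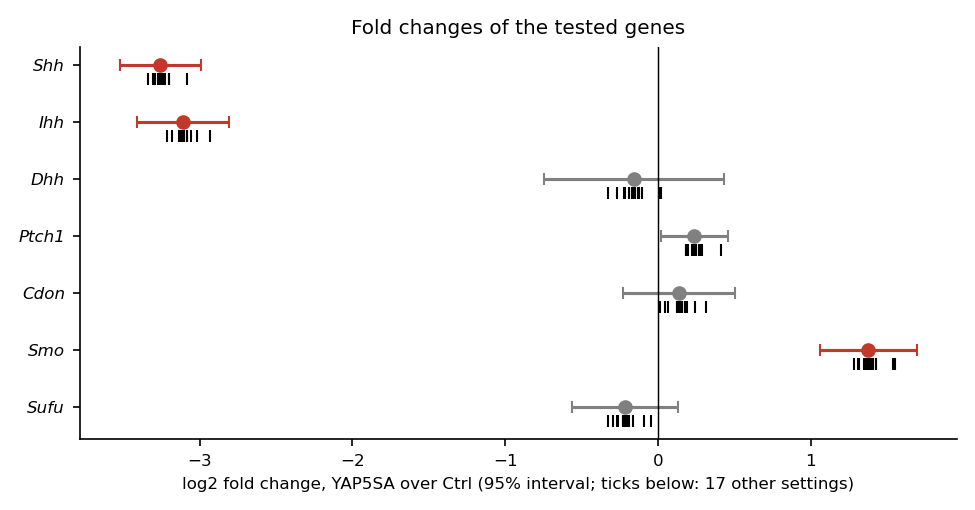
Log2 fold change, YAP5SA over Ctrl, of the 6 tested genes and Dhh with its 95% interval (red, called; grey, not called), and below each point ticks for the 17 other settings. Shh and Ihh stay below -2.9 and Smo above 1.2 in every setting, while the ticks of Ptch1 lie between 0.18 and 0.41.

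Other genes of the pathway were taken from 2 lists, 1 of components and 1 of target genes, that together hold 82 genes with a row. Of these, 57 were tested, 21 were higher, 18 lower and 18 not called, where 33.1% of all tested genes were higher and 31.3% lower. The shares are near the background. The median log2 fold change was 0.02, that of all tested genes. With library size scaling 28 were higher and 11 lower, where all 13812 tested genes gave 5742 higher and 3201 lower. The genes named from here on that are not among the 4 smallest p of their list were chosen by role after their values were seen.

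Among genes of ligand maturation and release, Disp1, which frees the lipid-bearing ligand from the cell, was at 13.3 ± 1.35 CPM in YAP5SA and 22.8 ± 2.49 CPM in Ctrl (log2 fold change -0.78, SE 0.12, edgeR adjusted p = 4.04e-05). Its relative Disp2 went the other way, at 1.0 ± 0.281 CPM in YAP5SA and 0.386 ± 0.209 CPM in Ctrl (1.37, SE 0.44, adjusted p = 0.0143). With 13, 21, 23 and 24 counts in YAP5SA and only 10, 9, 8 and 2 in Ctrl, the size of that change is uncertain. Hhat, which attaches palmitate to the ligand, was low in both, at 1.42 ± 0.552 CPM in YAP5SA and 0.867 ± 0.258 CPM in Ctrl, and not called (0.71, adjusted p = 0.102). It was called with library size scaling (0.88, adjusted p = 0.0497) and without YAP5SA replicate 4 (0.93, adjusted p = 0.0299). Scube3, of the family of secreted carriers, had 23, 20, 19 and 20 counts in YAP5SA and 1, 1, 9 and 1 in Ctrl. It was called higher (adjusted p = 0.000453), and Ctrl replicate 3, which holds most of its Ctrl counts, is the only Ctrl library above 3 counts, so no fold is given. Its relatives Scube1 and Scube2 had at most 2 counts in any library.

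Of the listed components, 50 had a row and 42 were tested, with 15 higher, 14 lower and 13 not called, where 33.1% of all tested genes were higher and 31.3% lower, so the shares are near the background. The smallest p among them belonged to Gpc3, Csnk1e, Lrp2 and Dyrk2. Gpc3, a glypican that competes with Patched for ligand, had 590, 510, 363 and 460 counts in YAP5SA and 1, 0, 1 and 2 in Ctrl (edgeR adjusted p = 2.3e-11), where the Ctrl counts are too few for a fold. Lrp2, the endocytic receptor megalin, had 234, 179, 191 and 298 counts in YAP5SA and 6, 0, 2 and 2 in Ctrl (adjusted p = 4.06e-09), likewise too few for a fold. For both, the lowest YAP5SA library was far above the highest Ctrl library. The other co-receptors, Boc and Gas1, had 5 to 13 and 0 to 3 counts in YAP5SA and 0 to 8 and 0 to 2 in Ctrl, and neither was tested.

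Around Smoothened at the base of the cilium, Evc and Evc2, partners that bind it and carry the signal on, rose together. Evc was at 7.15 ± 1.57 CPM in YAP5SA and 1.46 ± 0.631 CPM in Ctrl (log2 fold change 2.28, SE 0.29, edgeR adjusted p = 1.18e-05). Evc2 was at 13.6 ± 2.03 CPM in YAP5SA and 4.11 ± 1.31 CPM in Ctrl (1.72, SE 0.21, adjusted p = 5.89e-06). Of the 2 genes whose products anchor that complex, Efcab7 rose by 0.99 (SE 0.22, adjusted p = 0.00114) and Iqce was at -0.08 (95% interval -0.49 to 0.34, adjusted p = 0.748). Gpr161, a ciliary receptor that restrains the pathway, was low in both groups, at 0.951 ± 0.250 CPM in YAP5SA and 0.387 ± 0.157 CPM in Ctrl (1.26, adjusted p = 0.0128). Its Ctrl counts were only 7, 3, 10 and 10. Other components of the same list were lower: Arrb2 at -1.03 (SE 0.14, edgeR adjusted p = 1.74e-05), Grk2 at -0.60 (SE 0.12, adjusted p = 0.000616) and Arrb1 at -0.55 (SE 0.14, adjusted p = 0.00323). The listed components therefore did not move in 1 direction.

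The casein kinase 1, GSK3 and protein kinase A families include kinases that phosphorylate GLI proteins or Smoothened. Of the listed genes that encode the kinases themselves, 10 were tested, where 64.5% of all tested genes were called. Csnk1e and Prkacb were higher, Csnk1d, Csnk1g3 and Gsk3b were lower, and Csnk1a1, Csnk1g1, Csnk1g2, Gsk3a and Prkaca were not called. Prkar1a, a regulatory subunit of protein kinase A and not among the 10, was higher (log2 fold change 0.33, SE 0.07, edgeR adjusted p = 0.000803). Csnk1e rose by 1.55 on the log2 scale (SE 0.08), at 131 ± 5.00 CPM in YAP5SA and 44.6 ± 4.77 CPM in Ctrl, and Prkacb rose by 0.70 (SE 0.09). The lower genes had smaller log2 fold changes, of -0.35 for Csnk1g3, -0.24 for Csnk1d and -0.23 for Gsk3b. With library size scaling Csnk1d and Gsk3b were at -0.07 and -0.06 and lost their calls, and Csnk1d also lost it without YAP5SA replicate 1 (log2 fold change -0.22, adjusted p = 0.0598) and without replicate 2 of that group (-0.21, adjusted p = 0.0577). Of the uncalled genes, Csnk1a1 was at -0.05 (95% interval -0.21 to 0.10), and Prkaca was at 0.11 (adjusted p = 0.174), but at 0.29 (adjusted p = 0.00383) with library size scaling. Dyrk2, a kinase reported to restrain GLI activity, fell to 36.8 ± 1.06 CPM in YAP5SA, against 93.7 ± 8.13 CPM in Ctrl (-1.35, SE 0.08). Kif7, the ciliary kinesin that binds GLI proteins, had 5 to 14 counts in YAP5SA and 2 to 6 in Ctrl and was not tested.

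Of 33 listed target genes with a row, 15 were tested, 6 higher, 4 lower and 5 not called, with a median of 0.35. That is a share near the 64.5% called among all tested genes. Another 6 had 0 counts in all libraries. These are among the 18 with too few counts to test. Rab34, a small GTPase of cilium formation, was at 17.5 ± 2.54 CPM in YAP5SA and 2.92 ± 0.380 CPM in Ctrl (2.58, SE 0.16). Bmp4, the ligand that Hedgehog induces in gut mesenchyme, was at 13.4 ± 1.42 CPM in YAP5SA and 1.39 ± 0.654 CPM in Ctrl (3.25, SE 0.27), and Osr1, a transcription factor of foregut mesoderm, had 95, 40, 57 and 73 counts in YAP5SA and 3, 1, 3 and 1 in Ctrl, too few for a fold (adjusted p = 2.16e-07). Wnt5a, a secreted Wnt ligand, fell to 1.91 ± 0.491 CPM in YAP5SA, against 11.1 ± 0.726 CPM in Ctrl (-2.52, SE 0.19), and Mycn fell to 3.38 ± 0.317 CPM, against 15.2 ± 6.01 CPM in Ctrl (-2.17, SE 0.24). Ccnd1 was at -0.20 (adjusted p = 0.164) and Ccnd2 at -0.11 (adjusted p = 0.45), and Ccnd1 was called without Ctrl replicate 2 (-0.30, adjusted p = 0.0404) and with no filter on low counts (-0.21, adjusted p = 0.0382). Foxf1, the mesenchymal GLI target of the gut wall, had 0, 4, 6 and 3 counts in YAP5SA and 0, 0, 1 and 0 in Ctrl. Several of these genes answer to other pathways as well.

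**Figure D4:**
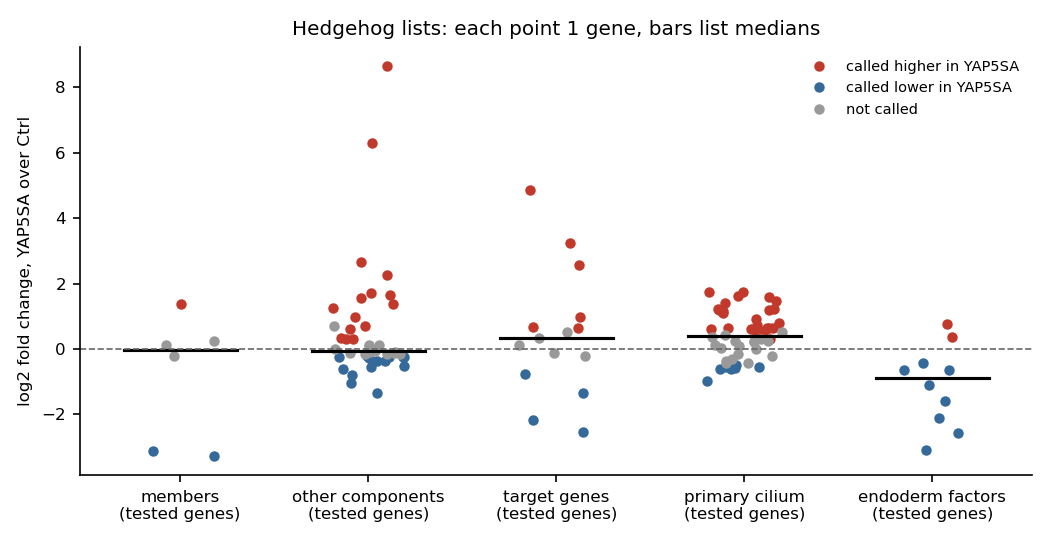
Log2 fold change, YAP5SA over Ctrl, of each tested gene in 5 lists (red, called higher; blue, called lower; grey, not called), with list medians as black bars and the median of all tested genes as a dashed line. Endoderm factors lie mostly below the line and cilium genes mostly above it; the points of Gpc3, Lrp2, Scube3 and Osr1 are fitted values that rest on few Ctrl counts.

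Since vertebrate Hedgehog signalling runs through the primary cilium, its assembly genes were examined as a list of 50. Of these 25 were higher, 7 lower and 18 not called, with a median of 0.41, set beside 33.1% higher and 31.3% lower among all genes tested. With library size scaling 30 were higher and 5 lower, a median of 0.58 where all genes stood at 0.19. Arl3, a GTPase that releases cargo in the cilium, was at 47.1 ± 2.60 CPM in YAP5SA and 14.1 ± 0.544 CPM in Ctrl (1.74, SE 0.09). Bbs5, of the BBSome, rose by 1.58 (SE 0.13), and the kinesin-2 subunits Kif3a and Kifap3 rose by 0.79 (SE 0.08) and 1.24 (SE 0.12). Kif3b, another subunit of kinesin-2, went the other way, at -0.58 (SE 0.08, edgeR adjusted p = 1.36e-05), so the subunits did not move together. Arl13b, a marker of the ciliary membrane, rose by 0.62 (SE 0.09). Tulp3, which brings receptors into the cilium, rose by 1.48 (SE 0.16). In the other direction, Cep164, of the basal body appendages, fell by 0.98 (SE 0.10), and Ift88, a core transport subunit, was at 0.00 (95% interval -0.26 to 0.25).

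Transcription factors of foregut endoderm, among them the Foxa factors known to act on Shh in endoderm, were mostly lower. Of 10 tested, 8 were lower and 2 higher, with a median of -0.87, where 31.3% of all genes were lower. Foxa3 was at 10.5 ± 1.74 CPM in YAP5SA and 88.6 ± 14.7 CPM in Ctrl (-3.08, SE 0.14), Hnf4a at 56.6 ± 3.11 and 242 ± 20.1 CPM (-2.10, SE 0.08) and Gata4 at 38.0 ± 5.97 and 115 ± 9.83 CPM (-1.59, SE 0.11), YAP5SA first. The forkhead factors Foxa1 and Foxa2, at 82.9 and 129 CPM and at 19.8 and 26.8 CPM in the same order, fell by 0.64 (SE 0.08) and fell by 0.44 (SE 0.12). With library size scaling Foxa2 was at -0.26 and not called (adjusted p = 0.0646). Pdx1, 1 of the 2 higher genes, was close to the threshold. Its call (0.76) ended without YAP5SA replicate 1, 3 or 4 or Ctrl replicate 1, 2 or 4 (adjusted p of 0.0632 to 0.138).

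The 3 nearest protein-coding genes on each side of Shh and Ihh, in RefSeq's order on GRCm38.p6, were read from the same fit. Beside Shh, Rbm33 (log2 fold change -0.06, 95% interval -0.27 to 0.16), Lmbr1 (-0.01, -0.23 to 0.21), Nom1 (-0.17, -0.39 to 0.05) and Rnf32 (0.46, -0.32 to 1.25) were not called, and Cnpy1 and En2 had at most 2 counts in any library. Lmbr1 holds a known distal enhancer of Shh, used in the limb. Nom1 was called without YAP5SA replicate 4 (-0.26, adjusted p = 0.0329). Beside Ihh, Cnppd1 fell by 1.27 (SE 0.12), Slc23a3 rose by 0.43 (SE 0.13) and Nhej1 was at -0.65 (SE 0.23, edgeR adjusted p = 0.0246). The Nhej1 call ended with library size scaling (-0.47) and without YAP5SA replicate 1 (-0.57), YAP5SA replicate 2 (-0.54) or Ctrl replicate 3 (-0.61). Cfap65, Cryba2 and Fev had at most 1 count in any library. Of the 7 neighbours that were tested, none had a log2 fold change below that of Cnppd1.

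The genes whose log2 CPM followed Shh most closely over the 8 libraries, by Pearson's r among 9835 tested genes above a mean of 2 on that scale, were Ak3, Mgst2, Gsta4, Sult1b1 and Pof1b (r of at least 0.999). They encode an adenylate kinase of the mitochondrial matrix, a microsomal and a cytosolic glutathione transferase, a sulfotransferase and an actin-binding protein. Their log2 fold changes were -2.11 for Ak3, -3.98 for Mgst2, -2.11 for Gsta4, -4.28 for Sult1b1 and -2.17 for Pof1b. Likeness here is mostly the step between the 2 groups, since 2260 genes had an r over 0.9, and Ihh ranked 65 with 0.997. For Ptch1, whose groups overlap, 94 genes had an r over 0.9, and the 5 closest were Ripor1 (0.983), Gnl1 (0.982), Mylip (0.978), Grina (0.978) and Tor1a (0.973). Their log2 fold changes were 0.36, 0.29, 0.74, 0.21 and 0.40, in that order. The calls of Ripor1, Gnl1 and Grina ended without YAP5SA replicate 1 or 4 or Ctrl replicate 1 or 3, and that of Grina also without YAP5SA replicate 3 or Ctrl replicate 2 (adjusted p of 0.0537 to 0.115).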

How the data were processed

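RNA of 4 YAP5SA and 4 Ctrl organoid cultures was sequenced from both fragment ends, per the labels' protocols. The values the authors deposited are raw read counts for each gene in each library. Tools named in the submitters' processing notes are cutadapt, HISAT2 2.0.1, HTSeq 0.6.1 and the build mm9. The annotation and the strand setting of the counting were not given in the sources used here. Total counts were 17387372 to 25841256 per library.

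The test was edgeR 4.0.16's quasi-likelihood F test (R 4.3.3) after TMM scaling, two-sided and with no covariate. Low genes were removed by filterByExpr (count of 10, total of 15). Benjamini-Hochberg adjustment ran over the 13812 remaining genes. SE is the log2 fold change over the square root of F. Ratios of 2 genes were tested by exact permutation of the libraries. CPM per kb uses exon lengths of GENCODE M21. The fit was tested on simulated data. No 2 replicates agreed within sampling noise (chi-square per degree of freedom 4.69 to 34.9).

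The 10 genes and the gene lists were chosen with earlier results of these data known. Besides the 10, the 4 genes of each list with the smallest p (all tested where a list has 5 or fewer) and the 5 most like Shh and Ptch1 are named; a few genes that this rule names are not reported here, and further pathway genes were chosen by role after their values were seen. Of 4 ratios, that of Ihh to Shh was planned and 3 were added after the values were seen. The adjustment over 4 ratios does not allow for that choice. Alternatives were DESeq2 1.42.0, limma-voom (limma 3.58.1), other scalings and filters, a replicate block and leaving out each library.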

Additional observations from a re-analysis of the deposited data

Results flagged for a closer look

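In 180 groups of 4 libraries, each a member, a gene picked by the naming rule or by role, or a ratio, in 1 genotype, 8 held a library far from the other 3 by Dixon's test at 95%; chance flags about 1 in 20. In YAP5SA, Sufu was at 9.21 CPM in replicate 4 and 7.54 to 7.73 CPM in the others, and Rab34 at 21.3 CPM in replicate 2 and 16.2 to 16.3 CPM in the others. Bmp2 was at 45.6 CPM in YAP5SA replicate 3 and 32.4 to 34.2 CPM in the others, and Cep164 at 23.0 CPM there and 17.7 to 18.4 CPM in the others. Lmbr1 was at 52.7 CPM in YAP5SA replicate 4 and 60.3 to 61.2 CPM in the others. In Ctrl, Smo was at 14.0 CPM in replicate 1 and 8.49 to 9.18 CPM in the others. Scube3 was at 0.375 CPM in Ctrl replicate 3 and 0.0559 to 0.0592 CPM in the others, and Gsk3b at 79.5 CPM in Ctrl replicate 4 and 85.6 to 86.5 CPM in the others.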

How the results depend on the processing

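Shh, Ihh and Smo kept their direction and call, and Cdon and Sufu stayed uncalled, under all 17 other settings. With Ptch1 added, 2 of the 10 genes were called higher, in place of 1, under limma-voom, upper-quartile scaling, library size scaling and a filter at 1 CPM in 4 libraries, and 1 to 2 when each library was left out. Of the wider pathway, 11 genes were lower with library size scaling, against 18, where all tested genes gave 3201 lower, against 4330. The Ihh to Shh log2 ratio differed by 0.0727 to 0.221 when each library was left out. The samples share only a replicate number: deviations of same-numbered libraries correlated at 0.0769 to 0.442, and 2 of 4 YAP5SA libraries matched their own number best. With a replicate block 9174 genes were called, against 8907, and 1 and 2 of the 10 genes were higher and lower. Blocked ratio tests cannot go below an exact p of 0.125. Depth limits the GLI genes and Hhip.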
